A study of Mus musculus with 8 samples.

Results

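Microglia and complement C1q genes were examined in mouse retina after treatment with MPTP, a neurotoxin used to model Parkinson disease. The group holds 10 genes chosen by function (Aif1, Cx3cr1, P2ry12, Tmem119, Csf1r, Trem2, Tyrobp, C1qa, C1qb and C1qc), all 10 of which were found among the 19938 genes compared. Each is represented by 1 probe set. Male C57BL/6 mice, 6 weeks old, were treated with saline or MPTP and assigned to a 7 day (1 week) or a 28 day (4 weeks) group. The 4 groups are therefore saline 1 week, MPTP 1 week, saline 4 weeks and MPTP 4 weeks, with 6 mice and 2 arrays each, and each array held RNA pooled from 4 retinas. The sources used here do not give the MPTP dose or schedule. No label tells if both pools of 1 group hold retinas of separate animals, so p-values reflect the spread between the arrays alone, which may be technical.

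Microglia are the resident macrophages of the retina. In the resting state they tile the plexiform layers with fine processes and express the fractalkine receptor Cx3cr1, the purinergic receptor P2ry12 and the membrane protein Tmem119, and they depend on signals through the receptor kinase Csf1r for survival. On injury they withdraw processes, proliferate and raise genes of the Trem2 and Tyrobp pathway, in which the lipid-sensing receptor Trem2 signals through the adaptor Tyrobp (also called DAP12). C1q, the recognition molecule that starts the classical complement cascade, is built from chains encoded by C1qa, C1qb and C1qc. In the central nervous system microglia are its main source, and C1q tags synapses and debris for removal.

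No member of the group passed the adjusted threshold in any comparison of treatment or time. At 4 weeks C1qa, C1qb and Tyrobp had higher signal on both MPTP arrays than on both saline arrays, C1qa by 0.33 ± 0.15 on the log2 scale, and 17.4% of all genes were apart in this way. At 1 week C1qb and Trem2 had lower signal on both MPTP arrays, as did 13.8% of all genes, and the groups of C1qa and Tyrobp overlapped. Of the genes of resting microglia, Cx3cr1, P2ry12 and Csf1r had overlapping groups at both times, while Tmem119 was higher on both MPTP arrays at 1 week, as were 12.5% of all genes, and overlapped at 4 weeks. All differences are log2 differences with the standard error of the limma fit, with 2 arrays per group, unless stated otherwise. In a bulk sample, fewer cells of a type and less RNA per cell cannot be told apart.

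Before the members' values, 2 arrays need mention. Saline 1 week array 2 and MPTP 1 week array 1 scored 15.7 and 19.1 on the first principal component, which held 38.3% of the variance, while the other 6 arrays scored between -9.39 and -0.39. Retinal identity was clear on every array, with all 7 measured rod photoreceptor markers and all 7 Mueller glia markers above the reference for dim signal. That reference was the 95th percentile of the mean signal of 1027 olfactory receptor genes, at 6.69. Of 12 measured microglia markers, 6 lay above it and 6 below (P2ry12, Csf1r, Sall1, Gpr34, Fcrls and Slc2a5). Among the members Cx3cr1, Tmem119, Trem2 and Tyrobp lay above it, and Aif1, P2ry12, Csf1r, C1qa, C1qb and C1qc lay below. Probe sets differ in affinity, so these positions mark dim signal and do not rank the genes by abundance.

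The C1q genes lie side by side on mouse chromosome 4 in the order C1qb, C1qc, C1qa, with no other gene between them in the RefSeq annotation of GRCm38.p6. The promoter windows of C1qb and C1qc are shown because these neighbouring genes encode chains of 1 molecule. They run from 250 bases before to 50 bases after the gene start, 5′ to 3′ on the minus strand, and come from RefSeq (GRCm38.p6). Capitals mark GAGGAA or its reverse complement TTCCTC, a core of sites bound by PU.1, the ETS factor that governs macrophage genes. The windows are chr4:136886151-136886450 for C1qb and chr4:136892865-136893164 for C1qc.
C1qb: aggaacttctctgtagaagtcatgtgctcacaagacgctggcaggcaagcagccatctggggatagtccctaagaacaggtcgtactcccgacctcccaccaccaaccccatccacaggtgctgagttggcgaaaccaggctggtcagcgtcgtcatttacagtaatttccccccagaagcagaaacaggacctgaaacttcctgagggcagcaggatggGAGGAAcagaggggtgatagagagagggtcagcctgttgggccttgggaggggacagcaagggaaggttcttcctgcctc
C1qc: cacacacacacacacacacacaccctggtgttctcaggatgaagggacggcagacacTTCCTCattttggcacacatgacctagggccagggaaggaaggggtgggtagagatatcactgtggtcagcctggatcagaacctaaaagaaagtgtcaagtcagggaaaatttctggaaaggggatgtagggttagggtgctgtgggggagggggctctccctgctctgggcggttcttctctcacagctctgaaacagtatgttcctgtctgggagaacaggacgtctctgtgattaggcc
Both windows hold 1 match, starting 30 bases before the gene start in C1qb and 193 bases before it in C1qc. Of the 6 members with a window in the table, 4 hold a match on either strand (Aif1, Trem2, C1qb and C1qc) and Cx3cr1 and P2ry12 hold none. Of all 32851 windows of this length, 28.3% hold one. A match describes the letters and is not a measured binding site.

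The complement chains were measured first for level. C1qa (probe set 10517517) read 6.21 and 6.23 in saline at 1 week, 6.02 and 6.58 in MPTP at 1 week, 6.14 and 6.10 in saline at 4 weeks, and 6.48 and 6.41 in MPTP at 4 weeks. Its saline arrays were close together at both times, its MPTP arrays at 1 week spanned the lowest and the highest value of all 8, and at 4 weeks both MPTP arrays lay above both saline arrays. C1qb (10517508) read 6.62 and 6.58 in saline at 1 week, 6.36 and 6.57 in MPTP at 1 week, 6.71 and 6.61 in saline at 4 weeks, and 6.75 and 6.77 in MPTP at 4 weeks. The MPTP arrays of C1qb thus lay just below saline at 1 week and just above it at 4 weeks. C1qc (10517513) read 6.30 and 6.16 in saline at 1 week, 6.06 and 6.30 in MPTP at 1 week, 6.30 and 6.03 in saline at 4 weeks, and 6.28 and 6.26 in MPTP at 4 weeks. Its groups overlapped at both times.

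**Figure D1:**
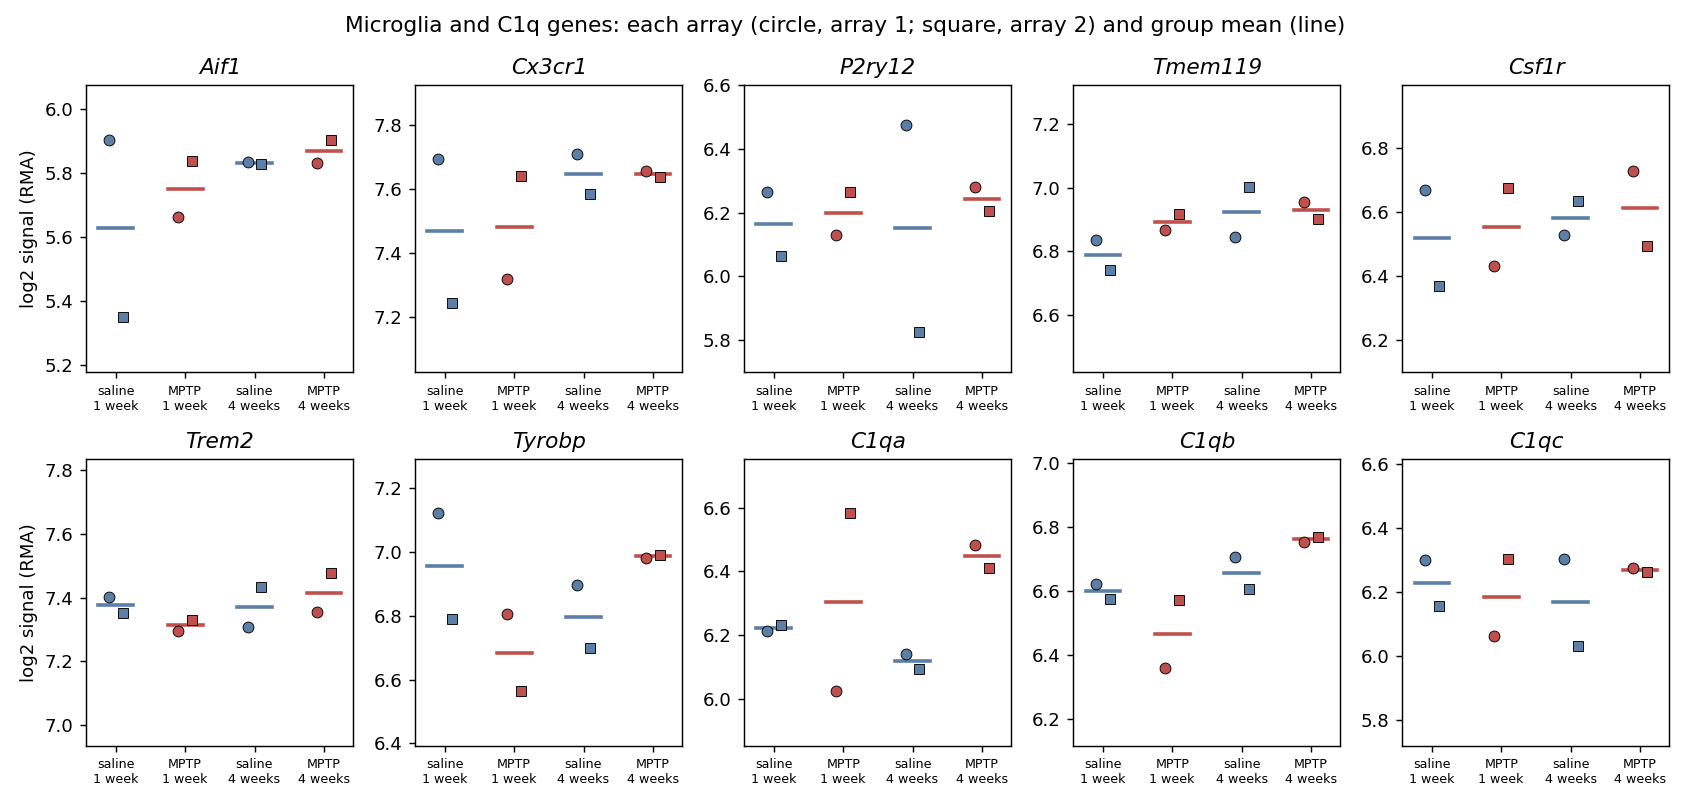
Log2 signal (RMA) of each of the 10 genes on the 8 arrays, by group, with circles for array 1, squares for array 2 and a line at the group mean; every panel spans the same 0.9 log2 units. C1qa at 4 weeks shows 2 saline arrays at 6.14 and 6.10 below 2 MPTP arrays at 6.48 and 6.41, and Aif1 and Cx3cr1 show their lowest value on saline 1 week array 2.

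The MPTP difference of C1qa was 0.081 ± 0.15 at 1 week (95% interval -0.26 to 0.42) and 0.33 ± 0.15 at 4 weeks (interval -0.0084 to 0.67, unadjusted p = 0.0549, limma adjusted p = 1.00). For C1qb the differences were -0.13 ± 0.098 and 0.11 ± 0.098, and for C1qc -0.044 ± 0.12 and 0.10 ± 0.12. C1qb at 1 week was -0.026 without MPTP array 1, which stands apart, and -0.24 without MPTP array 2. At 4 weeks it was 0.055 without saline array 2 and 0.16 without saline array 1. The value of C1qa at 1 week rests on single arrays: it was -0.20 without MPTP array 2 and 0.36 without MPTP array 1. At 4 weeks it ranged from 0.29 to 0.37 when any 1 array of that time was left out. Over both times, 4 arrays against 4, C1qa stood at 0.21 ± 0.11 (interval -0.033 to 0.44, limma adjusted p = 0.973), the highest value of the 10 members, and the MPTP and saline arrays overlapped. This value was 0.12 without MPTP 1 week array 2 and 0.34 without MPTP 1 week array 1. MPTP 1 week array 2, on which C1qa was highest, also had the highest mean signal of the lens markers (8.25 over 9 genes) and of the pigment epithelium markers (8.22 over 7 genes), and their part in the value of C1qa was not tested. The 3 chains correlated loosely over the 8 arrays, with r = 0.51 for C1qa and C1qb, 0.66 for C1qa and C1qc and 0.62 for C1qb and C1qc. Over the 6 arrays without the 2 that stand apart these were 0.13, 0.51 and 0.27.

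Trem2 and its adaptor differed in spread. Trem2 (10445781) read 7.40 and 7.35 in saline and 7.30 and 7.33 in MPTP at 1 week, and 7.31 and 7.43 in saline and 7.36 and 7.48 in MPTP at 4 weeks. It was the steadiest member, with a range of 0.18 over all arrays. Its 1-week MPTP arrays lay just below saline, and its 4-week groups overlapped. Tyrobp (10551883) read 7.12 and 6.79 in saline and 6.81 and 6.56 in MPTP at 1 week, and 6.90 and 6.70 in saline and 6.98 and 6.99 in MPTP at 4 weeks. Its groups overlapped at 1 week and were apart at 4 weeks, where MPTP was higher.

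The MPTP difference of Trem2 was -0.065 ± 0.091 at 1 week, and at 4 weeks it was 0.045 ± 0.091. For Tyrobp it was -0.27 ± 0.13 at 1 week (interval -0.57 to 0.023, unadjusted p = 0.0670) and 0.19 ± 0.13 at 4 weeks (interval -0.10 to 0.48, unadjusted p = 0.181). Leaving out 1 array gave -0.44 (saline array 2) to -0.10 (saline array 1) at 1 week and 0.090 (saline array 2) to 0.29 (saline array 1) at 4 weeks. Without both arrays that stand apart only 1 array per group was left at 1 week, and the value was -0.56. The 4-week effect of Tyrobp exceeded its 1-week effect by 0.46 ± 0.19 (interval 0.045 to 0.88, unadjusted p = 0.0333, limma adjusted p = 1.00). This was the only member with an unadjusted p under 0.05 for the difference of the effects, against 1.96% of all genes. Leaving out single arrays moved the value between 0.29 and 0.63, and the unadjusted p was no longer under 0.05 without any 1 of saline 1 week array 1, MPTP 1 week array 2, saline 4 weeks array 2 and either MPTP 4 weeks array. Without both arrays that stand apart it was 0.75. In the same comparison C1qa stood at 0.25 ± 0.21, C1qb at 0.24 ± 0.14 and C1qc at 0.15 ± 0.17. C1qb was also the 1 member whose groups were apart at both times in opposite directions, a pattern that 3.03% of all genes had.

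The markers of resting microglia varied with single arrays. Cx3cr1 (10597743) read 7.69 and 7.24 in saline and 7.32 and 7.64 in MPTP at 1 week, and 7.71 and 7.59 in saline and 7.66 and 7.64 in MPTP at 4 weeks. Its 2 lowest values were those of the 2 arrays that stand apart. Csf1r (10456071) read 6.67 and 6.37 in saline and 6.43 and 6.67 in MPTP at 1 week, and 6.53 and 6.63 in saline and 6.73 and 6.49 in MPTP at 4 weeks. These arrays also gave its lowest values. Aif1 (10450484), which encodes the actin-binding protein Iba1, read 5.91 and 5.35 in saline and 5.66 and 5.84 in MPTP at 1 week, and 5.84 and 5.83 in saline and 5.83 and 5.91 in MPTP at 4 weeks. Again both arrays were lowest.

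P2ry12 and Tmem119 followed other patterns. P2ry12 (10498371) read 6.27 and 6.07 in saline and 6.13 and 6.27 in MPTP at 1 week, and 6.48 and 5.82 in saline and 6.28 and 6.21 in MPTP at 4 weeks. Its highest and its lowest value of all 8 arrays were the 2 saline arrays of 4 weeks. Tmem119 (10532741) read 6.83 and 6.74 in saline and 6.87 and 6.92 in MPTP at 1 week, and 6.84 and 7.00 in saline and 6.95 and 6.90 in MPTP at 4 weeks. It was the 1 member with higher signal on both MPTP arrays at 1 week, and at 4 weeks its groups overlapped.

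For these 5 genes the MPTP differences were small against their errors. At 1 week Aif1 stood at 0.12 ± 0.16, Tmem119 at 0.10 ± 0.093, Csf1r at 0.034 ± 0.13, P2ry12 at 0.032 ± 0.18 and Cx3cr1 at 0.011 ± 0.15. Without saline array 2, which stands apart, Aif1 was -0.16, Cx3cr1 -0.22, P2ry12 -0.068 and Csf1r -0.12. Without MPTP array 2 Cx3cr1 was -0.15, P2ry12 -0.035 and Csf1r -0.087, so the sign of these genes at 1 week rests on single arrays. At 4 weeks P2ry12 stood at 0.093 ± 0.18, Aif1 at 0.035 ± 0.16, Csf1r at 0.030 ± 0.13, Tmem119 at 0.0062 ± 0.093 and Cx3cr1 at -0.0010 ± 0.15. The signs of Tmem119 and Cx3cr1 at 4 weeks turned after quantile normalization (-0.012 and 0.024). That of P2ry12 turned to -0.23 without saline array 2, and was 0.42 without saline array 1.

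**Figure D2:**
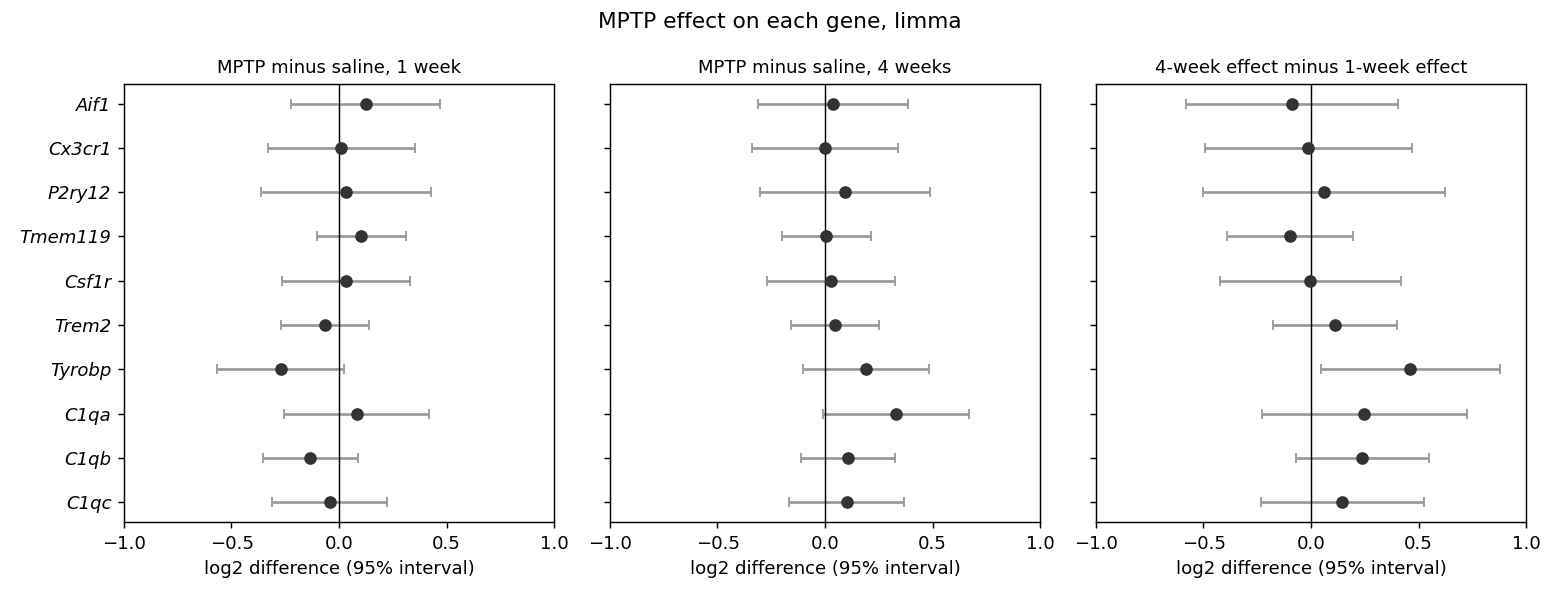
MPTP effect on each of the 10 genes as a log2 difference with its 95% interval from limma, at 1 week, at 4 weeks, and as the 4-week effect minus the 1-week effect. All intervals at 1 week and 4 weeks include 0, and Tyrobp, at 0.46 with an interval from 0.045 to 0.88, is the 1 gene whose interval leaves out 0 in the right panel.

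Counted together, 0 of the 10 members passed the adjusted threshold at 1 week or at 4 weeks, against 0% of all genes, by limma. At an unadjusted p under 0.05 the count was 0 of 10 at 1 week against 4.22% of all genes, and 0 of 10 at 4 weeks against 1.91%. Without both arrays that stand apart only 1 array per group was left at 1 week, with Tyrobp at -0.56 and C1qa at 0.37. With the array number as a block the count at 1 week was 1 (Tyrobp), beside 713 of all 19938 genes. At 4 weeks it was 1 (C1qa) with median centring (365 of all genes) and with only the groups compared (942 of all genes). The 4-week count was also 1 (C1qa) with a block in which the MPTP 1 week numbers were exchanged (453 of all genes). That alternative was chosen after seeing the data. Fits with arrays left out are not part of these counts. No member passed after adjustment in these fits. At 1 week 6 members were above 0 and 4 below, with a median of 0.022 beside -0.0081 for all genes, of which 46.9% were above 0. At 4 weeks 9 were above 0 and 1 below, with a median of 0.069 beside 0.0043 for all genes, of which 51.8% were above 0. Groups were apart with MPTP higher for 1 member at 1 week (Tmem119, against 12.5% of all genes) and for 3 at 4 weeks (C1qa, C1qb and Tyrobp, against 17.4%). They were apart with MPTP lower for 2 members at 1 week (Trem2 and C1qb, against 13.8%) and for none at 4 weeks (against 17.9%). The 95% intervals of the 10 members reached from 0.676-fold to 1.39-fold at 1 week and from 0.789-fold to 1.59-fold at 4 weeks. Missing the threshold does not show that these genes were unaffected within those bounds.

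The mean deviation of the 10 genes from their own 8-array means was -0.14 on saline 1 week array 2 and -0.13 on MPTP 1 week array 1. All 10 genes lay below their mean on both. On the other 6 arrays the mean deviation was between -0.056 and 0.10. The olfactory receptor genes, taken as dim probe sets, moved the same way, with -0.089 and -0.12 on the 2 arrays that stand apart and -0.046 to 0.099 on the others. Lower values on both of these arrays than on all 6 others were found for 3 members (Aif1, Cx3cr1 and Csf1r), for 19.1% of all genes and for 26.6% of the olfactory receptor genes. The part of this array difference in the members' values was not tested further. The 2 arrays fall in opposite groups of the 1-week comparison.

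**Figure D3:**
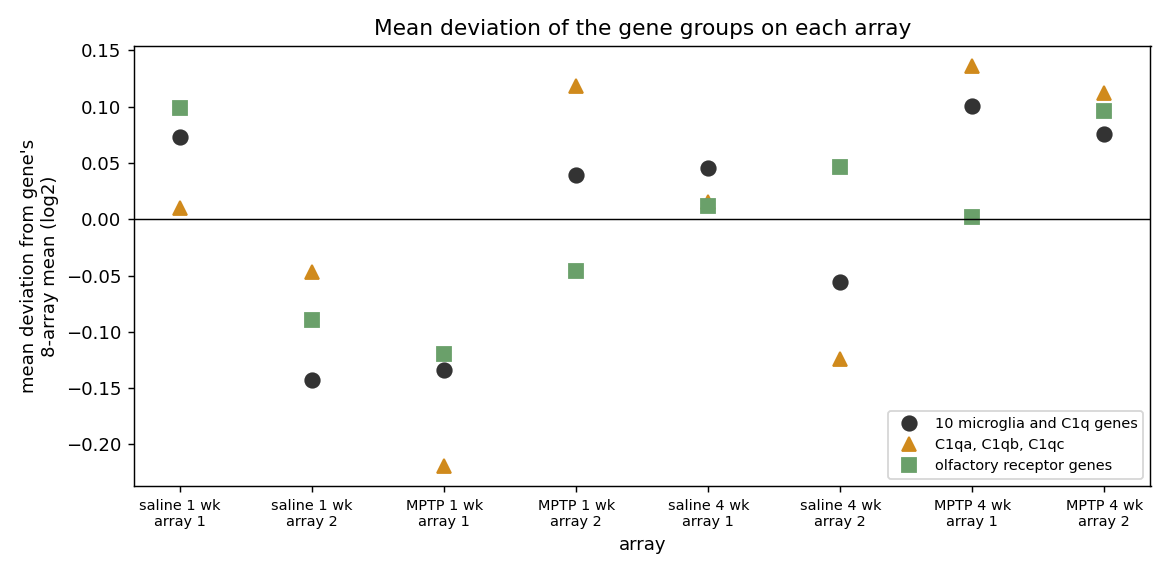
Mean deviation (log2) of the 10 microglia and C1q genes, of the C1q chains alone and of the olfactory receptor genes from each gene's mean over 8 arrays, for each array. The microglia and C1q genes stand at -0.14 and -0.13 on saline 1 week array 2 and MPTP 1 week array 1, where the olfactory receptor genes stand at -0.089 and -0.12.

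Change with time was compared within each treatment, and these comparisons share their arrays with the ones above. In saline retinas 5 members were above 0 and 5 below from 1 to 4 weeks, with a median of 0.025 beside 0.0012 for all genes. Of all genes 50.6% were above 0. No member passed by limma (0 of 10, against 0% of all genes), and none had an unadjusted p under 0.05 (against 2.13%). Tmem119 was higher at 4 weeks without overlap (0.13 ± 0.093, against 12.7% of all genes in that direction) and C1qa lower (-0.10 ± 0.15, against 15.1%). The highest values were those of Aif1, 0.21 ± 0.16, and Cx3cr1, 0.18 ± 0.15, whose groups overlapped. Both turned below 0 without saline 1 week array 2, to -0.073 and -0.047.

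In MPTP retinas all 10 members were above 0 from 1 to 4 weeks, against 53.3% of all genes. The members' median was 0.11, beside 0.015 for all genes and 0.14 for the olfactory receptor genes. No member passed by limma (0 of 10, smallest adjusted p = 0.507), and 2 had an unadjusted p under 0.05, against 9.79% of all genes. These were C1qb at 0.30 ± 0.098 (unadjusted p = 0.0133) and Tyrobp at 0.30 ± 0.13 (unadjusted p = 0.0454). Both had higher signal on both arrays of 4 weeks, as did Trem2 at 0.10 ± 0.091. Such separation with higher signal at 4 weeks was found for 22.8% of all genes, and with lower signal for 21.5% of all genes and no member. Without MPTP 1 week array 1, which stands apart, the members' median was 0.0080 and C1qb stood at 0.19 (unadjusted p = 0.113 by limma), and without MPTP 1 week array 2 Tyrobp stood at 0.18 (unadjusted p = 0.265).

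Over both times 7 members were above 0 and 3 below, with a median of 0.030 beside -0.0017 for all genes, of which 49.0% were above 0. No member passed by limma or had an unadjusted p under 0.05 (against 4.76% of all genes). None had the 4 MPTP arrays apart from the 4 saline arrays, which 1.01% of all genes showed with MPTP higher and 1.49% with MPTP lower. Besides C1qa the members lay between -0.041 (Tyrobp, ± 0.11) and 0.079 (Aif1, ± 0.11).

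The order of the 4 group means differed between members. MPTP 4 weeks was highest for 9 of the 10 genes, and for Cx3cr1 it lay 0.0010 below saline 4 weeks. The share of all genes with MPTP 4 weeks highest was not counted. The olfactory receptor genes had mean deviations of 0.0016 and 0.096 on the MPTP 4 weeks arrays and -0.12 to 0.099 on the others. The part of such array differences in these orders was not tested. Saline 1 week was lowest for Aif1, Cx3cr1, Tmem119 and Csf1r, saline 4 weeks for P2ry12, C1qa and C1qc, and MPTP 1 week for Trem2, Tyrobp and C1qb. Neighbouring groups in these orders overlapped in 26 of 30 cases. Over all genes 19.2% of such neighbours were apart, against 13.3% here. The 4 exceptions were saline 1 week below MPTP 1 week for Tmem119, saline 4 weeks below saline 1 week for C1qa, and, for C1qb, MPTP 1 week below saline 1 week and saline 4 weeks below MPTP 4 weeks.

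Other genes of the same pathways were followed in 10 lists, and no gene of any list passed by limma at 1 week or 4 weeks. Of all genes 46.9% were above 0 at 1 week and 51.8% at 4 weeks. C1s1 and C1ra encode the proteases that join C1q in the C1 complex. C1s1 read 4.14 and 3.93 in saline and 3.69 and 3.52 in MPTP at 4 weeks, a difference of -0.43 ± 0.11 (limma adjusted p = 1.00, unadjusted p = 0.00332). C1ra was at -0.18 ± 0.13 at 4 weeks, with overlapping groups, and read 6.72 and 6.51 in saline and 6.30 and 6.39 in MPTP at 1 week (-0.27 ± 0.13). Of the 7 classical complement genes measured, C1q included, 2 were above 0 at 1 week and 4 at 4 weeks, with medians of -0.080 and 0.10. For those that are not members the medians were -0.082 and -0.099. All 7 classical and all 7 terminal complement genes lay below the reference for dim signal.

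The signalling partners of Trem2 and Tyrobp had 2 of 10 genes above 0 at 1 week and 8 of 10 at 4 weeks, with medians of -0.043 and 0.11. The olfactory receptor genes, the reference for dim signal, had medians of -0.081 and 0.026, and their part in the shifts of these lists was not tested. Btk, a tyrosine kinase of myeloid and B cells, read 4.77 and 4.88 in saline and 5.09 and 5.08 in MPTP at 4 weeks, a difference of 0.25 ± 0.095, against -0.17 ± 0.095 at 1 week. Plcg2, a phospholipase downstream of Trem2, read 6.65 and 6.63 in saline and 6.25 and 6.47 in MPTP at 1 week (-0.28 ± 0.11). The list of activated microglia genes had 6 of 19 above 0 at 1 week (median -0.089) and 14 of 19 at 4 weeks (median 0.045). Of these 19 genes 13 lay above the reference for dim signal, and Cst7, Itgax, Clec7a, Axl, Ccl3 and Ccl4 lay below. The part of other cell types in the values of this list was not tested. The chemokine Ccl3 of this list was lower on both MPTP arrays at each time (-0.23 ± 0.091 and -0.16 ± 0.091). Btk, Plcg2 and Ccl3 lay below the reference for dim signal, and the mean of Btk (4.85) was also below the olfactory receptor median (5.09). The resting microglia list had 7 and 9 of 12 above 0 at the 2 times (medians 0.022 and 0.056), and the list shared with other macrophages 8 and 14 of 20 (medians -0.033 and 0.044).

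Among inflammatory cytokines 5 of 12 were above 0 at 1 week and 9 of 12 at 4 weeks, with medians of -0.071 and 0.047. At 1 week Il1a read 5.18 and 5.31 in saline and 5.81 and 5.55 in MPTP (0.44 ± 0.11, unadjusted p = 0.00266 by limma), while Tnf read 6.21 and 5.93 in saline and 5.70 and 5.76 in MPTP (-0.33 ± 0.11, unadjusted p = 0.0105). These classical products of activated microglia thus lay in opposite directions, and both were below the reference for dim signal. The complement inhibitor Cd55 read 4.64 and 4.61 in saline and 5.18 and 4.73 in MPTP at 1 week (0.33 ± 0.13), the 5.18 on the MPTP array that stands apart. It belongs to a list of receptors and regulators with 8 of 14 above 0 at 1 week and 6 of 14 at 4 weeks (medians 0.032 and -0.025). The MHC class II and alternative activation list had 3 and 6 of 9 above 0 (medians -0.029 and 0.068), and its member Chil3 read 5.67 and 5.73 in saline and 5.04 and 5.42 in MPTP at 4 weeks (-0.47 ± 0.14). Cd55 and Chil3 also lay below the reference for dim signal. Ligands and neuronal partners such as Csf1, Il34 and Cx3cl1 had 7 and 6 of 9 above 0 (medians 0.071 and 0.047), and terminal complement 2 and 3 of 7 (medians -0.015 and -0.031).

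**Figure D4:**
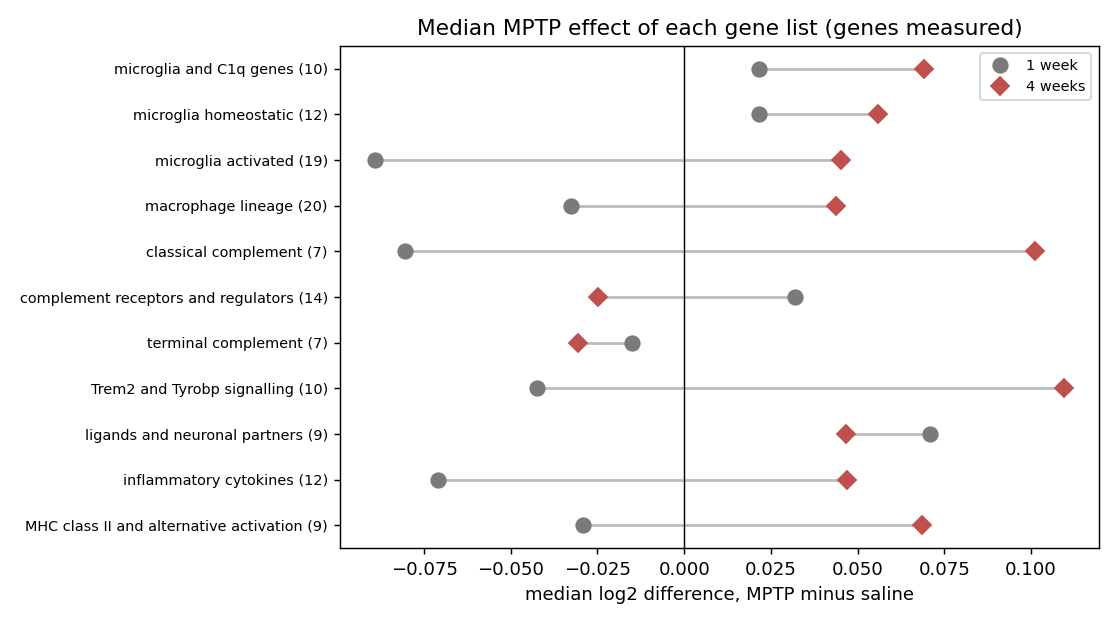
Median log2 difference (MPTP minus saline) of the 10 microglia and C1q genes and of each of the 10 pathway lists at 1 week (grey circles) and 4 weeks (red diamonds), with the number of genes measured in brackets. The medians lie between -0.089 and 0.11, and those of the Trem2 and Tyrobp signalling list are -0.043 and 0.11.

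Markers of other myeloid cells were dim. Of the perivascular macrophage markers 1 of 6 lay above the reference for dim signal, and of the neutrophil markers (7 measured) and monocyte markers (3 measured) none did. The mean signal of the perivascular macrophage list was 6.21 to 6.36 in saline and 6.21 to 6.39 in MPTP at 1 week, and 6.30 to 6.36 in saline and 6.34 to 6.42 in MPTP at 4 weeks. At 1 week the monocyte list was 4.69 to 4.73 in saline and 4.61 to 4.66 in MPTP. The neutrophil list was 5.62 to 5.88 in saline and 5.65 to 5.78 in MPTP. At 4 weeks the monocyte list was 4.85 to 4.91 in saline and 4.70 to 4.78 in MPTP, and the neutrophil list 5.81 to 5.83 in saline and 5.86 to 5.88 in MPTP. Of the monocyte markers at 4 weeks 1 was above 0 and 2 below (median -0.046). Chil3, also in the alternative activation list, was among those below, at -0.47. Microglia and perivascular macrophages share C1q, Csf1r, Aif1 and Cx3cr1, and the share of each cell type in these values was not tested.

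By Pearson correlation over the 8 arrays, the genes most like the mean of the C1q chains were Crygn (r = 0.96), Paqr4 (0.96), Adck5 (0.95), Ntn3 (0.93) and Fam131b (0.93). They were taken from 11370 genes above the reference for dim signal, without the members, olfactory receptor genes and predicted-model or clone names. Over the 6 arrays without the 2 that stand apart they were at 0.97, 0.96, 0.90, 0.83 and 0.86. For the mean of all 10 members the most alike were Syndig1l, Atoh7, Rfxank, Stoml1 and Vstm2l (r from 0.97 to 0.98, and 0.86 to 0.95 over the 6 arrays). These are the highest of 11370 values over few arrays, and none of the 10 is among the microglia genes listed here.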

How the data were processed

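The deposited values are RMA log2 signals. Per the submitters' processing notes, the software was Affymetrix Expression Console, with no version named. RMA corrects background, brings the probe values of the arrays to a common distribution and summarizes the probes of each probe set. The gene values used here still differed in spread. Their interquartile range was 1.90 on saline 1 week array 2, 1.92 on MPTP 1 week array 1 and 1.65 to 1.74 on the others. The sources used here name no genome build or batch. The number of arrays limits the precision, and in a dim probe set the log2 difference can understate the difference in RNA.

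Of 28944 probe sets, 21789 name 1 gene in the platform annotation; 1621 name several and 5534 have no entry, and these were left out. The probe set with the highest mean was kept per gene (19938 genes). Some listed genes were not analysed here. Genes were fitted over all 8 arrays with limma 3.58.1 in R 4.3.3 (lmFit, contrasts.fit and eBayes, two-sided) with a mean per group. For both times together, treatment and time were additive terms. P-values were adjusted by Benjamini-Hochberg over all genes (threshold 0.05). The members, gene lists and tests were chosen with earlier results of these data known. Named list genes are among the 2 with the smallest unadjusted p per list and time. Alternatives were quantile normalization, median centring, a filter on dim genes (percentile 50), averaging all probe sets of a gene, eBayes with trend and robust settings, only the groups compared, a replicate block, and arrays left out. The code was tested on simulated data. Figures used Python 3.11.15 and matplotlib 3.10.9.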

Additional observations from a re-analysis of the deposited data

Results flagged for a closer look

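C1qb was flagged because both MPTP arrays lay below both saline arrays at 1 week and above both at 4 weeks. The separation at 1 week was narrow, with 6.573 on MPTP array 2 and 6.576 on saline array 2. The 4-week effect exceeded the 1-week effect by 0.24 ± 0.14 (limma interaction, unadjusted p = 0.116, adjusted p = 1.00), so the test of the difference did not pass, and 3.03% of all genes had opposite separation at both times. Without MPTP 1 week array 1, which stands apart, the 1-week value of C1qb was -0.026, and leaving out single arrays moved the difference of the effects between 0.13 and 0.35. Groups of 2 arrays are too small for a search for single outlying arrays.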

How the results depend on the processing

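No member passed the adjusted threshold under any alternative (smallest adjusted p of a single gene named = 0.266). Of 564 recomputed values of single genes, 528 kept their direction and 36 turned. Many of these could not turn. Trend and robust settings, only the groups compared and the replicate blocks change the spread and not the log2 difference. Averaging of probe sets leaves members unchanged, as each has 1 probe set. The MPTP values of C1qa, C1qb and Tyrobp at 4 weeks kept their direction in all alternatives that measured them. So did those of C1qb, Trem2, Tyrobp and Tmem119 at 1 week. The cause was not tested for any value that moved. Without the 2 arrays that stand apart, the 1-week values were -0.068 for Aif1, -0.053 for Cx3cr1, -7.4e-04 for P2ry12, 0.0049 for C1qc and -0.025 for the members' median, the effect difference of C1qa was -0.040, and the change with time in saline was -0.073 for Aif1, -0.047 for Cx3cr1 and -0.080 for the members' median. At 4 weeks quantile normalization gave 0.024 for Cx3cr1 and -0.012 for Tmem119, and median centring -0.012 for Tmem119. The unadjusted p of C1qa at 4 weeks (limma) was 0.0470 with median centring, 0.00291 with only the groups compared and 0.0374 with exchanged numbers, against 0.0549. The fit of only the groups compared takes its spread from their arrays alone, and the exchange was chosen after seeing the data. This p was not under 0.05 with quantile normalization, averaging of probe sets, trend and robust settings or the replicate block. In all of these limma called no gene after adjustment. Over both times C1qa was 0.12 to 0.34 with single arrays left out.

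Leaving out single arrays gave these ranges at 1 week: members' median -0.12 to 0.11, Aif1 -0.16 to 0.40, Cx3cr1 -0.22 to 0.24, P2ry12 -0.068 to 0.13, Csf1r -0.12 to 0.19, C1qa -0.20 to 0.36 and C1qc -0.16 to 0.076. At 4 weeks they were -0.0014 to 0.072 for Aif1, -0.063 to 0.061 for Cx3cr1, -0.23 to 0.42 for P2ry12, -0.072 to 0.085 for Tmem119, -0.089 to 0.15 for Csf1r, -0.016 to 0.11 for Trem2 and -0.035 to 0.24 for C1qc. For the difference of the effects the members' median was -0.019 to 0.20 and C1qa -0.031 to 0.53. For the change with time in saline the median was -0.080 to 0.083, Aif1 -0.073 to 0.48 and Cx3cr1 -0.047 to 0.41. Over both times Tyrobp was -0.13 to 0.072. The count of all genes called for the change with time in MPTP was 0 to 1, the 1 gene being Rny1 (named after its value was seen) without MPTP 1 week array 1, and also 1 without both arrays that stand apart.

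No label says whether equal array numbers pair the samples. Deviations of equally numbered arrays correlated between -0.38 and 0.21, and 2 arrays per group are too few to tell if they are paired. With a replicate block 0 genes were called in all 6 comparisons, and 713 genes had an unadjusted p under 0.05 at 1 week against 842 without it. Among the members Tyrobp at 1 week had an unadjusted p of 0.0340 with the block and 0.0670 without. With the numbers of the MPTP 1 week arrays exchanged, an alternative chosen after seeing the data, 0 genes were called and 947 had such a p. Under the filter on dim genes only Cx3cr1 and Trem2 remained, with a median of -0.027 at 1 week and 0.022 at 4 weeks, which is not a median of the 10 members. The fit of only the groups compared was not run for the difference of the effects or over both times, which use all groups.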
